A study of Mus musculus with 3 samples.

Results

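Transcript levels of 10 genes of glutathione metabolism and the NRF2 antioxidant response (Gsta1, Gsta4, Gstm1, Gclc, Gclm, Gsr, Txnrd1, Srxn1, Nqo1 and Hmox1) were compared among 3 RNA-seq libraries of C2C12 cells. The genes were chosen by name, with earlier results of these data known. They were traced through the RefSeq accessions of their transcripts, and all 10 were found among the 22706 named genes of the deposited transcript files. C2C12 is an established mouse line of mesenchymal precursors that is widely used as a myoblast model. The first library was made from mock-transfected cells kept in growth medium, DMEM with 20% fetal bovine serum. The second came from cells transfected with shKSRP, labelled as a knockdown of KSRP (gene Khsrp, an RNA-binding protein of mRNA decay), kept untreated and listed under growth medium. The third came from mock-transfected cells under the title DM+BMP2. Per the labels, DM is DMEM with 2% horse serum, used for myogenic differentiation, and recombinant BMP2 was added at 100 to 300 ng/ml to induce osteoblastic differentiation. The sources used here give neither the exact dose nor the length of that treatment, beyond the mark 1d in a label. The medium and BMP2 cannot be told apart, since both differ between that library and mock. Each group was 1 library, so there is no spread between replicates, no test was made, and differences are given by size.

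NRF2, encoded by Nfe2l2, is a transcription factor that KEAP1 holds at a low level until oxidants or electrophiles modify KEAP1. With small MAF partners it binds antioxidant response elements near genes that make, use and regenerate glutathione and thioredoxin, and near the genes for NQO1 and haem oxygenase 1. Glutathione is the main small thiol of the cell, and in skeletal muscle cells it buffers the oxidants that arise from respiration and contraction.

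RefSeq promoters of the GRCm38.p6 build, running from 250 bases before to 50 bases after a start site, were at hand for 6 of the 10 genes, with 9 start sites in all. Gsta4, Gclc, Gsr and Hmox1 had none. Both strands were searched for TGACNNNGC, the core of the antioxidant response element, and for TGACTCA, the AP-1 site, which is close to part of a MAF recognition element. The first was found in promoters of Srxn1, Gclm and Txnrd1, 3 of the 9 promoters, against 12.4% of all 32851 RefSeq promoters. Counted by gene it was 3 of the 6, against 14.0% of 27025 genes, and Txnrd1 had 3 start sites in which a match could fall. The second was found only in that of Srxn1 among the 6 genes, at 2 places, against 5.2% of all promoters and 5.95% of genes. No match of the motifs overlapped another. The 250 bases upstream of the start are shown for those 3 genes, and for Gsta1, whose level differed most between libraries and whose window held neither motif. All 4 are on the plus strand and read 5′ to 3′, with matches in capitals, each of them a match on the opposite strand.
Srxn1, chr2:152105274-152105523: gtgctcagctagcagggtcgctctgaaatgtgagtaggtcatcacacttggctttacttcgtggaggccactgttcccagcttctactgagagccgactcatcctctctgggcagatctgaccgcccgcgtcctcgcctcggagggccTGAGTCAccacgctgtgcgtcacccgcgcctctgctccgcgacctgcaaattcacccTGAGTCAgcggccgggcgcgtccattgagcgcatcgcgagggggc
Gclm, chr3:122245307-122245556: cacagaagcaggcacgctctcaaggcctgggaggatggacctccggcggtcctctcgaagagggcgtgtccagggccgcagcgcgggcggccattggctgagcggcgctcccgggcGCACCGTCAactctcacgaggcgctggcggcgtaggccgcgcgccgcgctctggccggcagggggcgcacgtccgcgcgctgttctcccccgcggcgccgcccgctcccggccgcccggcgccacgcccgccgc
Txnrd1, the middle of its 3 start sites, chr10:82858956-82859205: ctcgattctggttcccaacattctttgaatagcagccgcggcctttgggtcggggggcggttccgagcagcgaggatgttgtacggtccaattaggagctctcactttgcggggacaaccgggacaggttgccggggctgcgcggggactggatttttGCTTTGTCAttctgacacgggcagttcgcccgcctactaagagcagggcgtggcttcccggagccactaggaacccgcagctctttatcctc
Gsta1, chr9:78230419-78230668: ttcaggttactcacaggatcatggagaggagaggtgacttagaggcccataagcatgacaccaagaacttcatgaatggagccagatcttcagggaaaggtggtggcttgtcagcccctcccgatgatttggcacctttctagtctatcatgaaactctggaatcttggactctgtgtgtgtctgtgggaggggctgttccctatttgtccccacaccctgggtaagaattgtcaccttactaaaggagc
Positions count from the start site and give the first base of a match as printed. In Srxn1 the TGACTCA matches are at -102 and -45, and the TGACNNNGC match, TGACCTAGC, is at 29 after the start and so outside the printed stretch. The Gclm match, TGACGGTGC, is at -134 and the Txnrd1 match, TGACAAAGC, at -92. Promoters of Gstm1 and Nqo1 held neither motif. Other spellings of these elements were not searched, so a stretch without a match may still hold one. A match describes the letters only, and binding was not measured.

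Levels are in FPKM, fragments per kilobase of transcript and per unit of mapped fragments, summed for a gene over its RefSeq transcripts and the transcripts that Cufflinks assembled from the library at the same locus. The value after ± is the distance to the upper bound of the 95% interval that the deposited files give, which covers counting and assignment of fragments within 1 library. The libraries held an estimated 60800000 to 68800000 fragments each, worked out from the width of the intervals, and the estimates for Gsta1 were 1441, 793 and 50 fragments in mock, shKSRP and BMP2. Of all genes, 11463 reached 1 FPKM in at least 1 library with a transcript of 300.0 bases or longer, and all 10 genes were among them. Khsrp, the targeted gene (mm9, chr17:57160472-57170930), stood at 31.4 ± 0.85 FPKM in mock cells, 28.4 ± 0.64 in the library labelled shKSRP and 27.1 ± 0.67 with BMP2. Its level in the library labelled shKSRP was 90.6% of that in mock, and over RefSeq transcripts alone it was above mock, with 28.4 against 15.5 FPKM. The knockdown is therefore not visible in Khsrp RNA, and every direction given for that library carries this doubt about its label. The 10 muscle markers summed to 559 FPKM in mock cells, 547 in the library labelled shKSRP and 368 with BMP2, with Myod1 and Des present in all 3. Des makes up much of these sums, and single markers went opposite ways. Des was at 280, 185 and 218 FPKM in that order, while Myf5 was at 7.75, 48.4 and 9.09, Musk at 2.37, 21.5 and 3.59 and Pax7 at 0.118, 2.9 and 0.463. Cdh15 was at 38.3, 31.1 and 5.02, and Mymk at 6.58, 17.6 and 11.4. Endothelial and hepatocyte markers summed to at most 0.123 FPKM in any library. Of 7 macrophage and blood markers, Adgre1, Itgam and Tyrobp were listed at 0 in all 3 libraries, and the sums were 13.0, 8.79 and 14.5 FPKM, mostly Cd14. Sums of adipocyte markers were 20.1, 8.99 and 18.8 FPKM, mostly Pparg. Epithelial markers summed to 114, 18.5 and 264 FPKM, nearly all Krt14, and neural markers to 99.0, 11.9 and 93.4 FPKM, nearly all Tubb3. The part of these marker levels in the results was not tested. In these bulk libraries, fewer cells of a type and less RNA per cell cannot be told apart.

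All 10 genes were below mock in the BMP2 library (Gstm1 only with assembled transcripts counted), and 6 of them by 2-fold or more: Gsta1, Gsta4, Gclc, Srxn1, Nqo1 and Hmox1. A gene was called higher or lower when its log2 ratio of FPKM + 1 was at least 1 in size, a fixed rule of size. Among all genes tested, 8.95% were lower and 9.21% higher by that rule. The median log2 ratio of the 10 genes was -1.16, against 0.03 over all genes tested. In the library labelled shKSRP, 3 of the 10 were lower than mock by 2-fold or more (Txnrd1, Srxn1 and Nqo1) and 0 were higher, with a median of -0.57. Among all genes tested in that comparison, 12.9% were lower and 11.0% higher, and the median was -0.02. Between the library labelled shKSRP and the BMP2 library, 4 of the 10 were higher in the former (Gsta1, Gsta4, Gclc and Hmox1) and 0 were lower, with a median of 0.43. There 6.07% of all genes tested were higher and 8.66% lower. The 3 comparisons share libraries and are not independent of each other. Since earlier results of these data were known when the 10 genes were chosen, their shares and medians beside those of all genes are descriptive only. Scaling each library to the same sum of FPKM moved the median of all genes by 0.29 for the library labelled shKSRP against mock and by 0.23 for BMP2 against mock. Higher calls then made up 68.2% of calls in place of 46.0% in the former, and 67.9% in place of 50.7% in the latter. Under that scaling, 0 of the 10 genes were called lower in the library labelled shKSRP, while lower calls over all genes tested went from 1484 to 976.

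**Figure D1:**
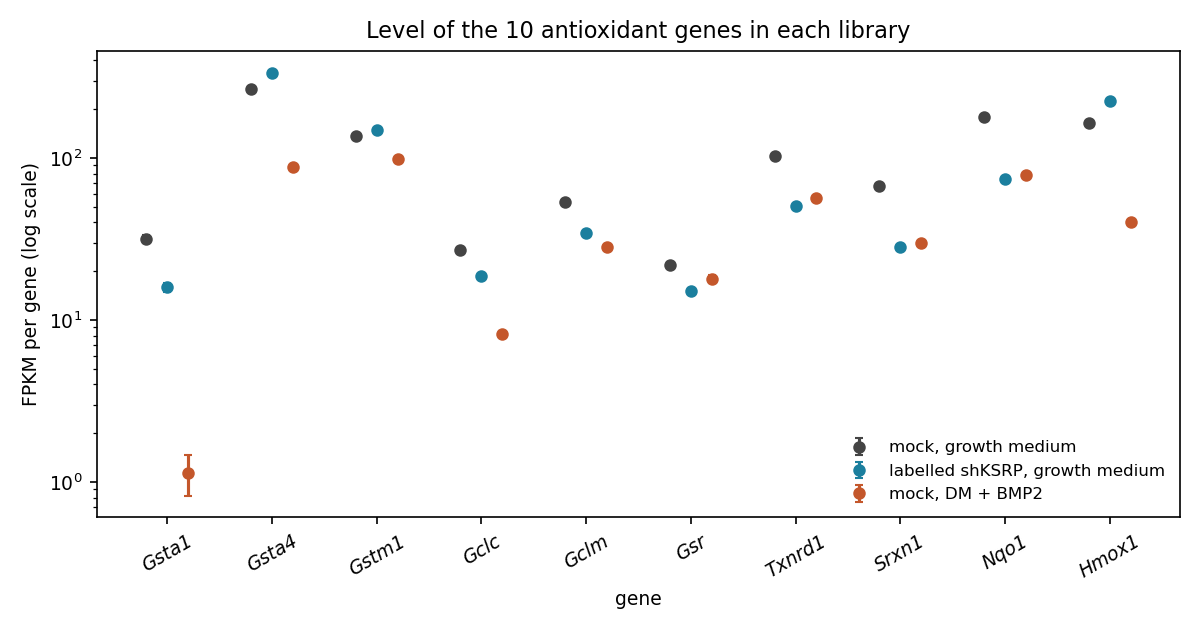
FPKM of each gene (log scale) in the mock library (grey), the library labelled shKSRP (blue) and the BMP2 library (orange), with error bars for the deposited 95% interval, most of them smaller than the points. Every grey point lies above its orange point in these sums (Gstm1 not over RefSeq transcripts alone), and for Gsta1 the orange point lies near 1 FPKM.

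Over the whole set, the levels summed to 1054.7 FPKM in mock cells, 946.5 in the library labelled shKSRP and 448.2 with BMP2. Over RefSeq transcripts alone, mock held 927.1 FPKM, below the library labelled shKSRP (946.5) and above BMP2 (423.5), so the order of the growth-medium libraries turned. Assembled transcripts added to 4 of the 10 genes in mock (Gstm1, Gclc, Srxn1 and Hmox1), to 3 with BMP2 (Gclm, Gsr and Srxn1) and to 0 in the library labelled shKSRP. Gsta4 was the most abundant of the 10 and Gsr the least abundant in both growth-medium libraries. With BMP2, Gstm1 was the most and Gsta1 the least abundant. The order of the libraries took 3 forms. Gsta1, Gclc and Gclm were highest in mock and lowest in the BMP2 library, but Gclc was highest in the library labelled shKSRP over RefSeq transcripts alone (18.7 against 8.65 FPKM in mock) and with a fixed gene length, and with that length Gclm was lowest there (34.5 against 45.8 FPKM with BMP2). Gsta4, Gstm1 and Hmox1 were highest in the library labelled shKSRP and lowest with BMP2, though Gstm1 was lowest in mock over RefSeq transcripts alone. Gsr, Txnrd1, Srxn1 and Nqo1 were highest in mock and lowest in the library labelled shKSRP. Over RefSeq transcripts alone the BMP2 library was instead the lowest for Gsr (5.26 against 15.2 FPKM) and Srxn1 (25.5 against 28.4 FPKM), as it was for Gsr with a fixed gene length and for Txnrd1 with assembled transcripts given by exon overlap. The order was the same under these 3 ways of counting for 4 of the 10 genes, Gsta1, Gsta4, Nqo1 and Hmox1. In the sums over RefSeq and assembled transcripts, the intervals of neighbours overlapped only for Srxn1, between the BMP2 library and the library labelled shKSRP. How often such intervals overlap over all genes tested was not counted. The intervals hold no spread between cultures, so intervals that stay apart do not show that an order would recur.

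The conjugating enzymes of the set were 3 glutathione S-transferases, which join glutathione to electrophiles. Gsta1, an alpha-class transferase (mm9, chr9:78078476-78090490, plus strand), measured 31.7 ± 1.7 FPKM in mock cells, 15.9 ± 1.1 in the library labelled shKSRP and 1.14 ± 0.32 with BMP2. The mock level was thus 27.8-fold above the BMP2 level, a log2 ratio of -3.93 ± 0.23 for BMP2 against mock. The ratio of the library labelled shKSRP to mock was -0.95 ± 0.12, short of the 2-fold rule. It was -0.62 with an equal sum of FPKM and -0.41 with the trend of the ratios over transcript length removed. The library labelled shKSRP stood 14.0-fold above the BMP2 library. Gsta1 was at the 7.1 percentile of tested genes in the BMP2 library.

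Gsta4 (mm9, chr9:78039773-78057156, plus strand), an alpha-class enzyme known for conjugating the lipid peroxidation product 4-hydroxynonenal, measured 268 ± 4.5 FPKM in mock cells, 335 ± 4.9 in the library labelled shKSRP and 88.5 ± 2.6 with BMP2. The log2 ratio to mock was 0.32 ± 0.03 in the library labelled shKSRP and -1.59 ± 0.05 with BMP2. The BMP2 library was low, and the other two lay within 2-fold of each other. Even there the gene was above 90.7% of tested genes.

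Gstm1, a mu-class transferase (mm9, chr3:107815168-107820891, minus strand), measured 136 ± 4.2 FPKM in mock cells, 148 ± 2.7 in the library labelled shKSRP and 98.3 ± 2.5 with BMP2. Its log2 ratios to mock were 0.12 ± 0.05 and -0.47 ± 0.06, both within 2-fold, at a locus that the files share with another gene. The mock level included 57.9 FPKM from an assembled transcript of 2 exons and 604 bases, and over the RefSeq transcript alone the BMP2 library was above mock, with 98.3 against 78.2 FPKM and a log2 ratio of 0.33. In the same setting the library labelled shKSRP stood at 148 against 78.2 FPKM, a log2 ratio to mock of 0.91 in place of 0.12. The direction of the BMP2 difference in Gstm1 thus turned, and that of the library labelled shKSRP came near the rule, with the transcripts counted.

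Alpha- and mu-class genes have close copies between which fragments can be divided, so the copies were added up, a step chosen after the data had been seen. Gm3776, a neighbouring alpha-class copy, measured 19.2, 9.01 and 0.742 FPKM in mock, in shKSRP and with BMP2, which is the order of Gsta1. Gsta2 measured 5.8, 12.1 and 0.304 FPKM, highest in the library labelled shKSRP. Gm10639 was listed at 0 in mock and measured 2.92 and 0.0609 FPKM in the others. The 4 copies summed to 56.7 ± 2.3, 40.0 ± 1.9 and 2.25 ± 0.46 FPKM, with log2 ratios to mock of -0.49 for the library labelled shKSRP and -4.15 for BMP2. The BMP2 difference was as large for the sum as for Gsta1 alone, and that of the library labelled shKSRP was smaller. Gstm2, the mu-class neighbour of Gstm1, measured 41.9, 53.0 and 59.5 FPKM, and its sum with Gstm1 gave 178, 201 and 158 FPKM.

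**Figure D2:**
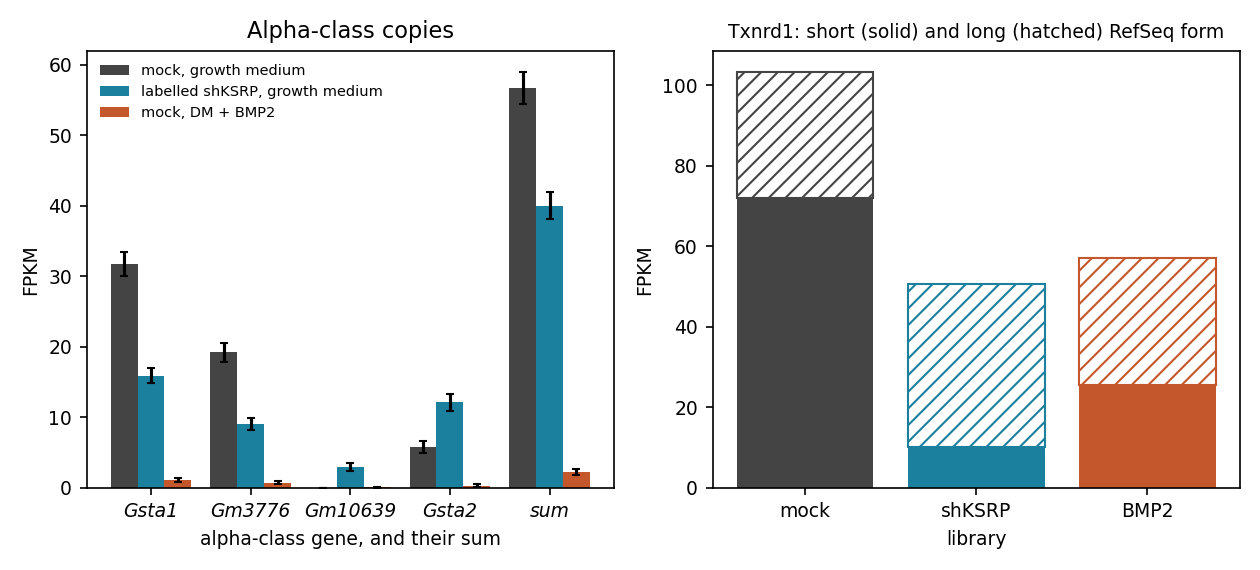
Left, FPKM of the 4 alpha-class copies and of their sum by library, with error bars for the 95% interval; the sum is 56.7 in mock and 2.25 in the BMP2 library. Right, FPKM of the RefSeq forms of Txnrd1 without (solid) and with (hatched) an exon of 107 bases; the form without it is 72.0 in mock cells and 10.2 in the library labelled shKSRP.

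Of 7137 genes at 10 FPKM or more in at least 1 library and above 0 in all 3, those with the pair of log2 ratios to mock nearest to that of Gsta1 were Gm3776, Pclaf, Ankrd52, Psat1 and Cdh15. Their distances on the log2 scale were 0.4, 1.18, 1.26, 1.37 and 1.39, measured over the 2 ratios of 3 libraries. Pclaf, a PCNA-associated factor of DNA replication, measured 86.4, 38.8 and 11.8 FPKM in mock, the library labelled shKSRP and the BMP2 library. Psat1, an enzyme of serine synthesis, measured 143, 146 and 17.4 FPKM. Cdh15, the muscle cadherin, measured 38.3, 31.1 and 5.02 FPKM. Apart from the copy Gm3776, the nearest genes thus lay more than 1 log2 unit away.

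Glutathione is made by glutamate-cysteine ligase, the rate-limiting enzyme, whose catalytic subunit is Gclc and whose modifier subunit is Gclm. Gclc (mm9, chr9:77602342-77642296, plus strand) measured 27.2 ± 1.2 FPKM in mock cells, 18.7 ± 0.56 in the library labelled shKSRP and 8.2 ± 0.40 with BMP2. The log2 ratio to mock was -0.52 ± 0.07 for the former and -1.62 ± 0.09 for the latter. The mock value rests on an assembled 3-exon transcript of 1419 bases at the 3′ end of the gene, which alone gave 18.5 FPKM. Over the RefSeq transcript alone, mock held 8.65 FPKM, so that the log2 ratio was -0.07 for BMP2 and 1.03 for the library labelled shKSRP. When fragments were set against the full RefSeq length, mock held 16.3 FPKM. The ratio was then -0.91 for BMP2 and 0.18 for the library labelled shKSRP. The Gclc call for BMP2 thus ended with the way of counting. The direction for the library labelled shKSRP turned under RefSeq transcripts alone and with the fixed length. Against BMP2, the library labelled shKSRP was 2.28-fold higher, a log2 ratio of 1.10 that fell short of the rule with a pseudocount of 5 (0.84).

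Gclm (mm9, chr3:121948510-121969566, plus strand) measured 53.5 ± 1.6 FPKM in mock cells, 34.5 ± 1.2 in the library labelled shKSRP and 28.2 ± 1.2 with BMP2. Its log2 ratios to mock were -0.62 ± 0.07 and -0.90 ± 0.07, both short of 2-fold. In the BMP2 library 7.73 FPKM of this came from an assembled transcript of 4809 bases, and over the RefSeq transcript alone the ratio for BMP2 was -1.34, past the rule. With a fixed gene length it was -0.22, and the ratio of the library labelled shKSRP to BMP2 turned from 0.28 to -0.40. In mock, an unstranded 3′ transcript of 4849 bases, assembled at 10.9 FPKM as a locus of its own, was counted in none of these values. Counting it by exon overlap gave ratios to mock of -1.16 for BMP2, past the rule, and -0.88 for the library labelled shKSRP. The Gclm difference with BMP2 was thus not settled in size, nor in direction against the library labelled shKSRP. The ratio of Gclm to Gclc level, on the FPKM scale, was 1.97 in mock cells, 1.85 in the library labelled shKSRP and 3.44 with BMP2. Over RefSeq transcripts alone these ratios were 6.18, 1.85 and 2.5, so that mock and not BMP2 was highest. The modifier subunit was above the catalytic subunit in every library both ways.

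**Figure D3:**
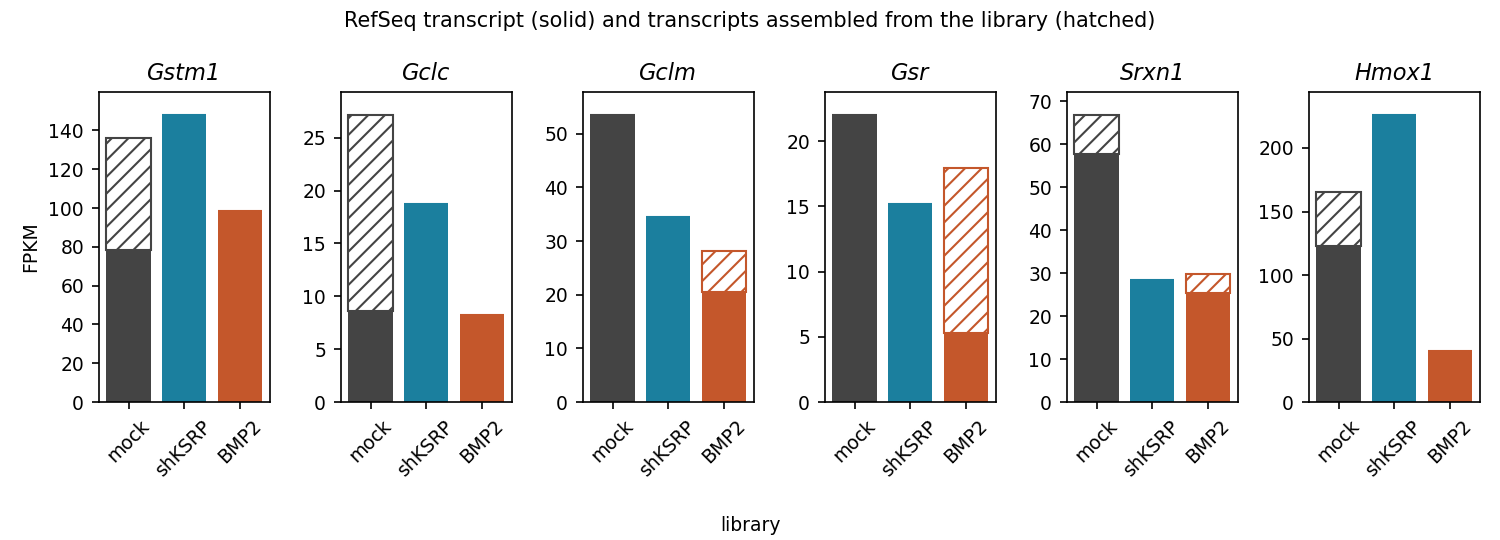
FPKM of the 6 genes with assembled transcripts counted in at least 1 library, split into the RefSeq transcript (solid) and assembled transcripts (hatched), by library. Assembled transcripts make up most of Gclc in mock and of Gsr in the BMP2 library.

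Gsr, glutathione reductase, which regenerates reduced glutathione with NADPH (mm9, chr8:34763710-34808634, plus strand), measured 22 ± 0.73 FPKM in mock cells, 15.2 ± 0.58 in the library labelled shKSRP and 17.9 ± 0.92 with BMP2. Its log2 ratios to mock were -0.51 ± 0.07 and -0.28 ± 0.08, within 2-fold. In the BMP2 library 70.7% of the level came from an assembled 9-exon transcript of 1710 bases, and the RefSeq transcript alone stood at 5.26 FPKM there, a log2 ratio of -1.87. Against BMP2, the library labelled shKSRP had a log2 ratio of -0.23, but 1.37 over RefSeq transcripts alone, past the rule, and 0.17 with a fixed gene length. Size, direction and call of the Gsr differences that involve the BMP2 library thus depended on the transcripts counted.

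Txnrd1, Srxn1 and Nqo1 shared one pattern, with a high mock level and lower, near-equal levels in the other libraries. Txnrd1, the cytosolic thioredoxin reductase (mm9, chr10:82296696-82360469, plus strand), measured 103 ± 1.7 FPKM in mock cells, 50.6 ± 1.1 in the library labelled shKSRP and 57.0 ± 1.3 with BMP2. Its log2 ratios to mock were -1.01 ± 0.04 and -0.85 ± 0.04, so that only the library labelled shKSRP passed the rule. An unstranded 3′ transcript of 1860 bases, assembled at 13.4 FPKM in the library labelled shKSRP as a locus of its own, was not counted, and counting it gave a ratio of -0.68. The call for Txnrd1 rested on a ratio at the edge of the rule and was kept in 4 of 9 other settings. In addition, the locus is shared with another gene in the files.

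The RefSeq forms of Txnrd1 differed more than the gene total. Of 3 start sites listed, only the middle one, at position 82321951 of mm9, carried FPKM above 0. It is the one whose promoter is printed above, matched by the distances between the start sites (25255 and 1135 bases in both builds). From it run a form of 15 exons and a form of 14 exons that lacks an exon of 107 bases (mm9, chr10:82323269-82323375). The form with the exon measured 31.4, 40.4 and 31.5 FPKM in mock, the library labelled shKSRP and the BMP2 library. The form without it measured 72.0, 10.2 and 25.5 FPKM. The form without the exon was thus 69.6% of the total in mock cells, 20.2% in the library labelled shKSRP and 44.7% with BMP2. These shares are Cufflinks estimates within 1 library each.

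Srxn1, sulfiredoxin, which restores over-oxidized peroxiredoxins (mm9, chr2:151931466-151937089, plus strand), measured 66.8 ± 1.4 FPKM in mock cells, 28.4 ± 0.81 in the library labelled shKSRP and 29.7 ± 0.98 with BMP2. Its log2 ratios to mock were -1.20 ± 0.05 and -1.14 ± 0.06. The levels of the other two libraries differed by less than their intervals. An assembled 2-exon form added 9.05 FPKM in mock, and without it the ratio for the library labelled shKSRP was -1.0, at the edge of the rule. With an equal sum of FPKM neither ratio passed (-0.87 and -0.89).

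Nqo1, NAD(P)H quinone dehydrogenase, which reduces quinones to hydroquinones (mm9, chr8:109912125-109927105, minus strand), measured 180 ± 2.8 FPKM in mock cells, 73.7 ± 1.7 in the library labelled shKSRP and 78.9 ± 1.9 with BMP2. Its log2 ratios to mock were -1.28 ± 0.04 and -1.18 ± 0.04. The mock library stood above both others, which were close to each other. No assembled transcript was involved. The call in the library labelled shKSRP ended when libraries were scaled to an equal sum of FPKM (-0.94, with -0.92 for BMP2) and when the trend of the ratios with transcript length was removed (-0.93).

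Hmox1, haem oxygenase 1, which opens haem to biliverdin, iron and carbon monoxide (mm9, chr8:77617517-77624492, plus strand), measured 165 ± 3.2 FPKM in mock cells, 226 ± 3.0 in the library labelled shKSRP and 40.3 ± 1.3 with BMP2. Its log2 ratio to mock was 0.45 ± 0.03 in the library labelled shKSRP and -2.01 ± 0.05 with BMP2. The BMP2 level was 4.1-fold below mock and 5.6-fold below the library labelled shKSRP. Hmox1 and Nqo1 thus took different orders: Hmox1 was 0.916 of the Nqo1 level in mock, 3.06 times it in the library labelled shKSRP and 0.511 of it in the BMP2 library. Of the mock level, 42.1 FPKM came from an assembled 6-exon form. Over the RefSeq transcript alone, the log2 ratio to mock was 0.87 in the library labelled shKSRP and -1.59 with BMP2. Hmox1 was then 0.683 of the Nqo1 level in mock.

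**Figure D4:**
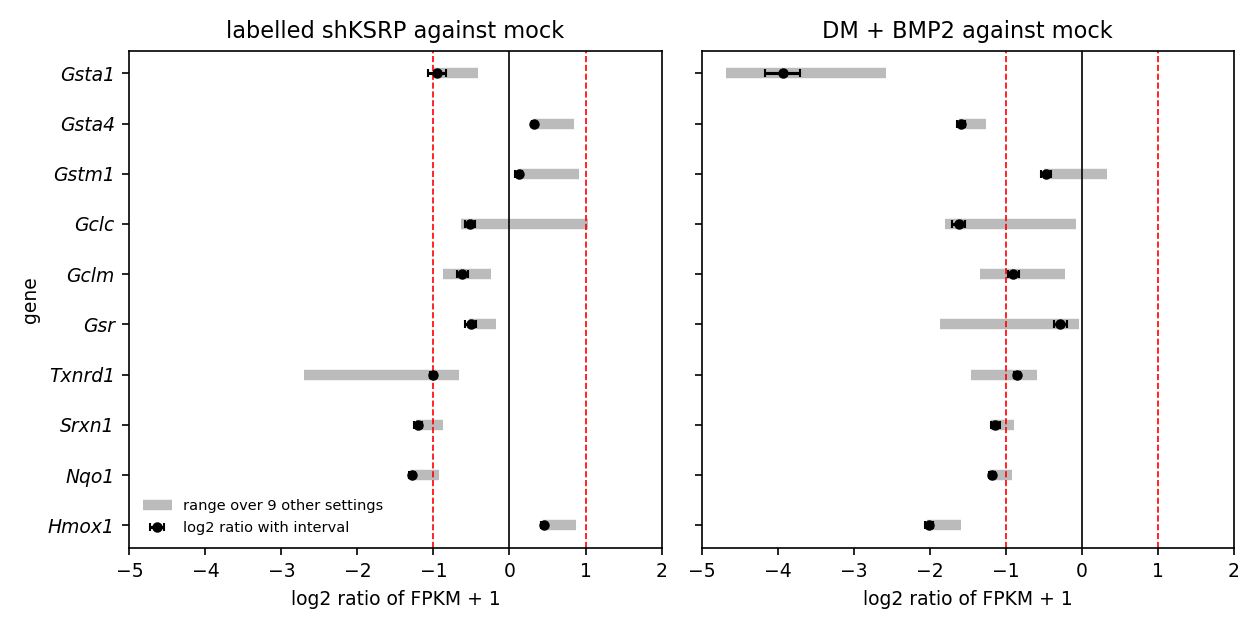
Log2 ratio of FPKM + 1 to mock for each gene in the library labelled shKSRP (left) and the BMP2 library (right), as points with the interval from the deposited bounds. Grey bars give the range over 9 other settings, and dashed lines mark 2-fold; the bars of Gsta1, Gsta4 and Hmox1 stay below -1 in the BMP2 panel, and that of Gclc reaches -0.07.

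Across those 9 settings, the calls of Gsta1, Gsta4 and Hmox1 as lower in the BMP2 library than in mock held in every one, with ratios from -4.68 to -2.58 for Gsta1, -1.62 to -1.26 for Gsta4 and -2.04 to -1.59 for Hmox1. The same 3 genes kept their call as higher in the library labelled shKSRP than in the BMP2 library. Of the 3 calls between the library labelled shKSRP and mock, 0 held in all 9. The 4 genes called between the library labelled shKSRP and the BMP2 library included Gclc, whose call held in 8 of the 9 settings. Gsta1, Gsta4 and Gclc lie within 488 kb of each other on chromosome 9, and Hmox1 is on chromosome 8. How often called genes lie this close over all genes tested was not counted.

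Other genes of these pathways came from 7 lists of 138 genes, of which 137 were matched. The lists were also chosen with earlier results of these data known, so their shares beside all genes are descriptive only. Without the 10 genes above, 114 were tested. In the BMP2 library 12 were higher and 15 lower than mock, with a median log2 ratio of -0.21. The lower calls were 13.2% against 8.95% of all genes tested, and the higher calls 10.5% against 9.21%. With the trend of the ratios over transcript length removed, 12 were higher and 12 lower, and the lower share was 10.5% against 9.0%. In the library labelled shKSRP 13 were higher and 18 lower than mock, with a median of -0.14, and the lower calls were 15.8% against 12.9% and the higher calls 11.4% against 11.0%. Scaling to an equal sum of FPKM turned the latter counts to 20 higher and 11 lower. Over all genes tested the same scaling gave 2090 higher and 976 lower in place of 1264 and 1484, so the lists moved with all genes. With the trend of the ratios over transcript length removed, the list counts for the library labelled shKSRP were 14 higher and 9 lower. The lower share was then 7.89% against 11.2% of all genes tested, below it in place of above. Between the library labelled shKSRP and the BMP2 library, 16 were higher and 10 lower, with 14.0% higher against 6.07% of all genes tested. In each comparison 4 of these calls rested on a gene listed at 0 in a library. The shares given for single lists below are read against the same shares of all genes tested, 11.0% higher and 12.9% lower for the library labelled shKSRP, 9.21% higher and 8.95% lower for BMP2.

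**Figure D5:**
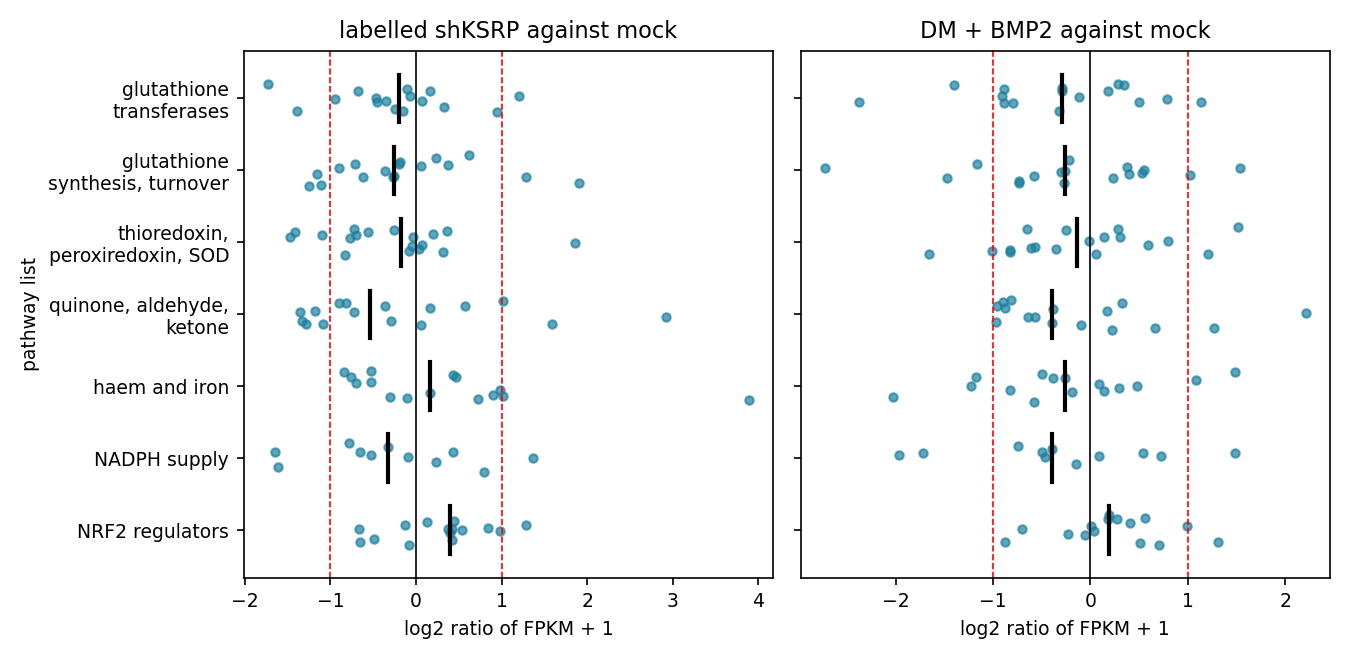
Log2 ratio of FPKM + 1 to mock for each gene of the 7 pathway lists, without the 10 genes and without genes listed at 0 in a library, in the library labelled shKSRP (left) and the BMP2 library (right). Black bars are medians of each list and dashed lines mark 2-fold; most points lie within 2-fold in both panels.

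Among 16 other glutathione transferases, 1 was higher and 2 lower in each comparison with mock, 6.25% and 12.5% of the list. Gsto1, an omega-class enzyme, measured 196 ± 3.5 FPKM in mock cells, 74.3 ± 2.0 in the library labelled shKSRP and 74.0 ± 2.6 with BMP2, the pattern of Nqo1. Mgst3, a microsomal enzyme, measured 217, 64.6 and 117 FPKM and passed the rule only in the library labelled shKSRP, with a log2 ratio of -1.73. Gsta2 was the other gene lower in the BMP2 library, and Gstm7, at 0.562 FPKM in mock, the gene higher in both.

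Among 18 genes of glutathione synthesis, turnover, reduction and cystine uptake, 3 were higher and 3 lower in the library labelled shKSRP than in mock, and 2 higher and 3 lower in the BMP2 library. These were 16.7% higher and 16.7% lower in the former and 11.1% and 16.7% in the latter. Chac1, which breaks down glutathione inside the cell, measured 39.2 ± 1.3 FPKM in mock cells, 60.8 ± 1.5 in the library labelled shKSRP and 5.08 ± 0.48 with BMP2, an order it shares with Hmox1. Abcc1, an exporter of glutathione conjugates, measured 9.51, 38.5 and 14.4 FPKM, with a log2 ratio of 1.91 in the library labelled shKSRP. Ggct and Glrx2 were lower and Ggt7 higher than mock in both libraries, and Glrx5, a mitochondrial glutaredoxin, was lower in the library labelled shKSRP at 53.1 against 120 FPKM. Gpx3, the secreted glutathione peroxidase, measured 24.6, 29.0 and 73.6 FPKM at a locus shared with another gene.

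Among 20 genes of thioredoxin, peroxiredoxin, superoxide dismutase and catalase, 2 were higher and 4 lower than mock in each comparison, 10% and 20.0% of the list. Prdx1, an abundant cytosolic peroxiredoxin, measured 846 ± 8.8 FPKM in mock cells, 395 ± 4.2 in the library labelled shKSRP and 476 ± 4.9 with BMP2. Sod1, the cytosolic superoxide dismutase, measured 1082.1 ± 19, 407 ± 6.9 and 689 ± 14 FPKM. Both passed the rule only in the library labelled shKSRP, with log2 ratios of -1.10 and -1.41. Prdx5, at a shared locus, was lower in both libraries, with 632 FPKM in mock cells, 228 in the library labelled shKSRP and 313 with BMP2. Among sestrins, stress-inducible regulators of metabolism, Sesn3 was higher in the library labelled shKSRP (11.6 against 2.47 FPKM), while in the BMP2 library Sesn1 was higher (27.5 against 8.99) and Sesn2 lower (5.04 against 18.2). Sod3, the extracellular superoxide dismutase, was higher in the BMP2 library, at 66.6 against 28.3 FPKM. Sod2, the mitochondrial enzyme, measured 20.0 FPKM in mock cells and 53.8 in the library labelled shKSRP and was listed at 0 in the BMP2 library.

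Among 18 genes of quinone, aldehyde and ketone detoxification, 3 were higher and 6 lower in the library labelled shKSRP, and 3 higher and 1 lower in the BMP2 library. These were 16.7% higher and 33.3% lower in the former and 16.7% and 5.56% in the latter. Ptgr1, Cbr3 and Esd, a reductase of prostaglandins, a carbonyl reductase and an esterase, had log2 ratios to mock of -1.36, -1.33 and -1.28 in the library labelled shKSRP, and -0.38, -0.96 and -0.97 in the BMP2 library. Aox1, aldehyde oxidase, measured 3.47 ± 0.22 FPKM in mock cells, 32.8 ± 1.6 in the library labelled shKSRP and 19.7 ± 1.2 with BMP2. Ugt1a6a, at a shared locus, was also higher in both, and Adh7 was higher in the library labelled shKSRP at 20.5 against 9.64 FPKM.

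Among 15 genes of haem and iron handling, the subunits of ferritin, which stores iron, were among the most abundant transcripts. Fth1, the heavy subunit, measured 4677.6 ± 20 FPKM in mock cells, 2871.6 ± 15 in the library labelled shKSRP and 1991.8 ± 13 with BMP2. Ftl1, the light subunit, measured 4831.6 ± 19, 3351.0 ± 15 and 2138.6 ± 13 FPKM. Slc48a1, a haem transporter, measured 185 ± 2.2, 109 ± 1.6 and 44.5 ± 1.2 FPKM. These 3 genes were the ones called lower in the BMP2 library, with log2 ratios of -1.23, -1.18 and -2.03 beside the -2.01 of Hmox1, and 2 genes (Flvcr1 and Aco1) were higher, 20.0% lower and 13.3% higher of the list. In the library labelled shKSRP 2 of the 15 were higher (13.3%) and 0 lower. Slc40a1, ferroportin, the iron exporter, measured 0.799 ± 0.12 FPKM in mock cells, 25.8 ± 0.67 in the library labelled shKSRP and 1.21 ± 0.18 with BMP2, a log2 ratio of 3.89 in the former. Flvcr1, a haem exporter, was the other, at 4.66 against 1.8 FPKM. Against the BMP2 library, 4 of the 15 (26.7%, against 6.07% of all genes tested) were higher in the library labelled shKSRP and 0 lower, Slc48a1 and Slc40a1 among them.

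Among 11 genes of NADPH supply, 1 was higher and 2 lower than mock in each comparison, 9.09% and 18.2% of the list. G6pdx, which opens the pentose phosphate pathway, measured 43.5 FPKM in mock cells, 114 in the library labelled shKSRP and 46.5 with BMP2. Tkt, of the same pathway, measured 51.2, 16.1 and 36.8 FPKM, so that these pathway neighbours lay on opposite sides of mock in the library labelled shKSRP. Mthfd1, of folate metabolism, was lower in both libraries, with 65.4, 20.2 and 19.1 FPKM. Mthfd2 was lower (17.0 against 69.7 FPKM) and Idh1 higher (115 against 40.5 FPKM) in the BMP2 library.

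The NRF2 gene itself lay within 2-fold across the libraries. Nfe2l2 measured 62.2 ± 1.6 FPKM in mock cells, 56.6 ± 1.4 in the library labelled shKSRP and 63.9 ± 1.6 with BMP2, with log2 ratios to mock of -0.13 and 0.04. Keap1, its inhibitor, measured 27.7 ± 1.3, 17.1 ± 0.60 and 16.7 ± 0.80 FPKM, ratios of -0.67 and -0.70. Bach1, a repressor that competes with NRF2 at its sites, measured 3.61, 5.72 and 3.66 FPKM. All 3 lay within 2-fold of mock in both libraries, and NRF2 protein was not measured. Among the 16 genes of NRF2 and its regulators tested, 1 was higher and 1 lower in the library labelled shKSRP, and 1 was higher and 0 lower in the BMP2 library, each of these single genes being 6.25% of the list. Nfe2l1, a related factor at a shared locus, measured 76.7, 188 and 126 FPKM. Prkcd, a protein kinase C that can phosphorylate NRF2, measured 11.9, 8.19 and 31.0 FPKM. The gene called lower in the library labelled shKSRP was Maff, a small MAF protein listed at 0 there, named after its value was seen.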

How the data were processed

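Polyadenylated RNA of 3 C2C12 libraries, 1 per group, was size-selected at 250 ± 25 bp and amplified by 18 PCR cycles, per the labels' protocols. The protocols name no molecular identifiers, and whether PCR copies make the intervals too narrow was not tested. The intervals cover counting and assignment error only. The authors deposited a Cufflinks transcript file per library with FPKM and its 95% bounds in the attribute text, and a score per transcript that was not used. The tools listed in the submitters' processing notes are TopHat 1.4.1, Bowtie 0.12.7, Cufflinks 1.3.0 and CASAVA 1.8, and the build is mm9. No source used here gives their settings.

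RefSeq accessions were named through the RefSeq table (27563 of 28222), GENCODE (166) or the files (216), and 277 kept their accession. FPKM of a gene summed its RefSeq and assembled transcripts of the same Cufflinks locus. Ratios were log2 of FPKM + 1, with intervals from the squared half-widths added, and 2-fold was the rule of size. The other settings counted RefSeq transcripts alone, the most abundant RefSeq transcript, or assembled transcripts by exon overlap. They also used a fixed gene length, pseudocounts of 0.1 and 5, an equal sum of FPKM, a median ratio of 0, and a removed length trend. The scripts were tested on simulated data. The genes and lists were chosen with earlier results of these data known. Named genes were the 10, Khsrp, Nfe2l2, Keap1, Bach1, up to 3 genes each way per list and comparison with mock by size of ratio among those past 2-fold and above 0 in both libraries, and the 5 nearest to the gene with the largest ratio. Python 3.11.15, numpy 2.4.6 and pandas 2.3.3 were used.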

Additional observations from a re-analysis of the deposited data

How the results depend on the processing

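No called value changed sign. The sign of the log2 ratio held in all 9 other settings for 9 of the 10 genes in each comparison with mock (not Gclc for the library labelled shKSRP, nor Gstm1 for BMP2) and for 5 of 10 between the library labelled shKSRP and BMP2. Of the other 5, Gclm, Srxn1 and Nqo1 stayed within 2-fold in all 9, while Gsr reached 1.37 over RefSeq transcripts and Txnrd1 reached -1.24 over the most abundant one. Of the median log2 ratios of the 10 genes, that of the library labelled shKSRP against mock (-0.57) became -0.51 with a pseudocount of 5, -0.24 with an equal sum of FPKM and -0.43 with the length trend removed. That of BMP2 against mock (-1.16) became -1.26 over RefSeq transcripts alone, -1.40 over the most abundant one, -1.03 with a fixed gene length, -1.10 with a pseudocount of 5 and -0.90 with an equal sum. That of the library labelled shKSRP against BMP2 (0.43) became 0.91 over RefSeq transcripts alone and over the most abundant one, 0.52 with an equal sum and 0.61 with the length trend removed. Genes of the 10 higher in the library labelled shKSRP than in mock went from 0 to 1 (Gclc) in both RefSeq settings, those lower from 3 to 0 with an equal sum, and those lower than BMP2 from 0 to 1 (Txnrd1) over the most abundant RefSeq transcript. Over all genes, higher calls in the library labelled shKSRP against mock (1264) became 1906 over the most abundant transcript, 605 with a pseudocount of 5 and 2090 with an equal sum, and lower calls (1484) became 909 with that pseudocount and 976 with an equal sum. With a pseudocount of 5, BMP2 against mock gave 540 higher and 628 lower in place of 1056 and 1026, and the library labelled shKSRP against BMP2 gave 335 and 514 in place of 696 and 993. The latter gave 1162 higher over RefSeq transcripts alone and 1159 over the most abundant one. Counting only list genes above 0 in all 3 libraries, the thioredoxin list had 1 gene higher in place of 2 for the library labelled shKSRP and 2 lower in place of 4 for BMP2, the NRF2 list 0 lower in place of 1 for the former, and the quinone list 0 lower in place of 1 for BMP2. Between the library labelled shKSRP and BMP2, the quinone and NRF2 lists each had 1 lower in place of 2. All lists together, in settings added after the data were seen, gave 20 higher and 11 lower for the library labelled shKSRP with an equal sum, and 9 lower with the length trend removed, in place of 13 and 18. Of values for single genes, 116 moved by more than their interval and 160 did not. The causes were not tested. No paired analysis was possible because each group held 1 library, and for the same reason no library could be left out. Depth limits Gsta1 in the BMP2 library, where its interval is 0.32 on a level of 1.14 FPKM.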
